A study of Homo sapiens with 3 samples.

Results

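The genes described here are small Cajal body RNAs (scaRNAs) and the long noncoding host transcripts of small nucleolar RNAs (snoRNAs), chosen from the platform annotation as every gene symbol that begins with SNORA, SNORD, SCARNA or SNHG followed by a digit. This rule found 32 of the 14884 named genes on the array: 9 host transcripts (SNHG genes) and 23 scaRNAs. It found 0 box C/D snoRNAs (SNORD) and 0 box H/ACA snoRNAs (SNORA) in that annotation, so those classes were not analysed here. Each of the 32 genes had 1 probe set.

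Expression was measured in BE(2)-C, a human neuroblastoma cell line with amplified MYCN, on Affymetrix HuGene-2_0-st arrays. Cells carried WDR5 siRNA-1, WDR5 siRNA-2 or the control siRNA for 40 hours, with 1 array for each of these 3 groups. All groups share the line, its MYCN amplification and a transfected siRNA. With 1 array per group there is no replicate error, no test was run, and every difference below compares 1 array with another. Both ratios to control use the same control array, so a deviation of that array enters both. Neither an untreated culture nor a rescue is among the groups.

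snoRNAs and scaRNAs are guide RNAs. Box C/D guides direct ribose methylation and box H/ACA guides direct the conversion of uridine to pseudouridine. snoRNAs act on ribosomal RNA in the nucleolus, whereas scaRNAs act on the small nuclear RNAs of the spliceosome in Cajal bodies. Most human guides are cut out of introns, and an SNHG gene is a host whose spliced product is a long noncoding RNA. Many hosts are terminal oligopyrimidine transcripts, which begin with a C and a run of pyrimidines and are regulated with the translation machinery. WDR5 belongs to the COMPASS family of histone methyltransferase complexes and also binds proteins of the MYC family.

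RefSeq promoter sequences (GRCh38.p14, 250 bases before to 50 after the annotated start) were matched for 8 of the 9 SNHG genes and for 0 of the scaRNAs. The SNHG gene without a matched promoter was SNHG15, the 1 member at least 1.5-fold lower with both WDR5 siRNAs. The windows of SNHG17, lower on both WDR5 siRNA arrays, and SNHG16, lower on 1 of them, are shown beside those of SNHG5 and SNHG20, whose deposited values were identical on all arrays. They are SNHG17 at chr20:38435279-38435578 on the minus strand, SNHG16 at chr17:76557514-76557813 on the plus strand, SNHG5 at chr6:85678684-85678983 on the minus strand and SNHG20 at chr17:77088393-77088692 on the plus strand. Capitals mark CCAAT and CCGGAA on either strand, and CTTTT on the transcribed strand within 20 bases of the start.
SNHG17: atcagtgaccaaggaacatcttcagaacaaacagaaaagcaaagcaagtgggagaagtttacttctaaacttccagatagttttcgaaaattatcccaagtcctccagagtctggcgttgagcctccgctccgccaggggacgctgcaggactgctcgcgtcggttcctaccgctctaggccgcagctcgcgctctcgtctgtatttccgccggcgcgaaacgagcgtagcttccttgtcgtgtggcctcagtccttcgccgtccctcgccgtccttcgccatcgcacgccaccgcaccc
SNHG16: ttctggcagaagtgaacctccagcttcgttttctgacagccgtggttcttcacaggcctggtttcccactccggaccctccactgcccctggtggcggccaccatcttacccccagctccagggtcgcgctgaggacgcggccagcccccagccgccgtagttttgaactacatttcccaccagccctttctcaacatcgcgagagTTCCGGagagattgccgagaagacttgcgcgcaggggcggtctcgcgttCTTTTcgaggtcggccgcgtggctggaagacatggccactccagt
SNHG5: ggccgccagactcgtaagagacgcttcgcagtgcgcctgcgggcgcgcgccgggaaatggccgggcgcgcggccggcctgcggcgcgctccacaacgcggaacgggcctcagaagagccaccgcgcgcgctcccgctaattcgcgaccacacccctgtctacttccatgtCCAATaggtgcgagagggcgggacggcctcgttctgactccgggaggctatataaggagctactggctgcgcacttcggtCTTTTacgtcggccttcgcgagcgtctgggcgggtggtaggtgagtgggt
SNHG20: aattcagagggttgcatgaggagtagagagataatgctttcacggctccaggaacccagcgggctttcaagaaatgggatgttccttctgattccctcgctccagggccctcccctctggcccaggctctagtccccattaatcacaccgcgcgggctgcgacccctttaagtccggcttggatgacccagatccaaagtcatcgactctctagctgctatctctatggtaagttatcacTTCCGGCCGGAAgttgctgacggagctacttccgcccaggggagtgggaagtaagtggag

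The pyrimidine-rich letters CTTTT near the start were found in 3 of the 9 promoter entries of these 8 genes (SNHG16, SNHG5 and 1 of the 2 entries of SNHG33), against 4.87% of all 35116 entries. The E-box CACGTG, the classical MYC motif and its own reverse complement, was found in 0 of the 9 and in 7.26% of all entries. TATAAA, searched on both strands, was likewise in 0 of the 9 and in 11.5% of entries. CCAAT was in 4 of the 9 (34.6% of all entries) and CCGGAA in 3 of the 9 (17.2%). In SNHG20 a copy of CCGGAA on each strand meets the other, so the capitals run together. The motifs were chosen after the sequences were seen, and a match or its lack is a description of these letters only. None of these counts covers SNHG15, and the identical values of SNHG5 and SNHG20 are not read as a measured lack of change.

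The targeted gene checked the control label against the WDR5 siRNA labels, but could not tell WDR5 siRNA-1 from WDR5 siRNA-2. WDR5 had a log2 value of 7.90 with WDR5 siRNA-1 and 7.90 with WDR5 siRNA-2, against 9.46 with the control siRNA. The WDR5 siRNA values are an exact tie, though no other row of either array held that value, so the tie gives no measure of spread. Of the neuroblastoma markers, 9 of 11 were measured and all 9 passed the level filter, with values from 7.29 (TH) to 11.6 (HAND2). Markers of Schwann cells, leukocytes, endothelium and fibroblasts were measured for 6 of 9 genes and stood between 4.29 and 8.14. Of these, 3 also passed the level filter (CD68, S100B and SOX10), and CD68 (7.75 to 8.14) stood above TH. The level filter kept genes whose mean over the 3 arrays was at least 6.78, the median of all named genes, which left 7442 genes. The 23 background rows of the array, which hold no gene, ranged from 1.75 to 9.26, so a value below 9.26 may be at background and the size of its fold is uncertain.

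Exact ties limit what the members can show. Of the 32 members, 11 had the same deposited value on all 3 arrays (34.4%, against 34.5% of all named genes). Among the 22 members that passed the level filter the count was 6 (27.3%, against 14.9% of the 7442 genes). Many such values are not particular to a gene: over all rows of the array 90.5% of the rows tied on all arrays held a value that at least 1 other row also held on the control array, against 33.9% of the other rows. Of the 11 tied members, 9 held a value shared by at least 8 rows on every array, and SCARNA23 shared its value with the most, 60 to 88 rows. An exact tie is therefore not read below as a measured lack of change.

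Among the host transcripts, SNHG15 was the 1 member that differed from control by 1.5-fold or more, in 1 direction, on both WDR5 siRNA arrays. SNHG15, the host of SNORA9, had log2 values of 8.87 with WDR5 siRNA-1 and 8.77 with WDR5 siRNA-2, against 9.88 with the control siRNA. It was thus at 49.7% and 46.4% of control (log2 ratios of -1.01 and -1.11). Both WDR5 siRNA values were below the highest background row and the control value was above it. Of the 22 members that passed the filter, this is 1 lower and 0 higher, beside 0.847% of the 7442 genes lower and 0.618% higher with both siRNAs.

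SNHG17 came next and stayed short of that fold. This gene contains 4 guides of the SNORA71 family (SNORA71A to SNORA71D). It had log2 values of 8.36 with WDR5 siRNA-1 and 8.35 with WDR5 siRNA-2, against 8.89 with the control siRNA. The difference was 1.44-fold and 1.46-fold, with log2 ratios of -0.53 and -0.54. The WDR5 siRNA arrays lay close to each other and below control for both SNHG15 and SNHG17, and all 3 values of SNHG17 were within the range of the background rows.

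SNHG16 separated the siRNAs. This transcript contains the box C/D guides SNORD1A, SNORD1B and SNORD1C, and one of its older names, ncRAN, comes from work on aggressive neuroblastoma. It had log2 values of 11.67 with WDR5 siRNA-1 and 12.88 with WDR5 siRNA-2, against 12.67 with the control siRNA. The siRNA-1 array was 2.00-fold below control and the siRNA-2 array 1.16-fold above it. All 3 values stood above every background row and each was unique to this row of its array, unlike most other members.

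SNHG8, the host of SNORA24, had log2 values of 10.90 with WDR5 siRNA-1 and 10.56 with WDR5 siRNA-2, against 10.74 with the control siRNA. It too stood above every background row, and it went the opposite way from SNHG16 with each siRNA (log2 ratios of 0.16 and -0.18). SNHG18, which contains SNORD123, was the 1 host under the level filter, with 5.28 on both WDR5 siRNA arrays against 5.21 with the control siRNA. Its siRNA value of 5.28 was held by 191 rows on the siRNA-1 array and 208 rows on the siRNA-2 array.

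The other 4 hosts were tied on all arrays. SNHG10, which contains SCARNA13, stood at 7.50, and SNHG33, which contains SNORA63D and SNORA63E, at 7.53. These values recurred in 19 to 23 rows and in 8 to 13 rows of each array. SNHG5, the host of SNORD50A and SNORD50B, stood at 8.53, and SNHG20, the host of SCARNA16, at 9.08. Their values recurred in at most 2 rows of an array, fewer than for any other tied member. What made these ties is not known, and they give no measure of spread.

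**Figure D1:**
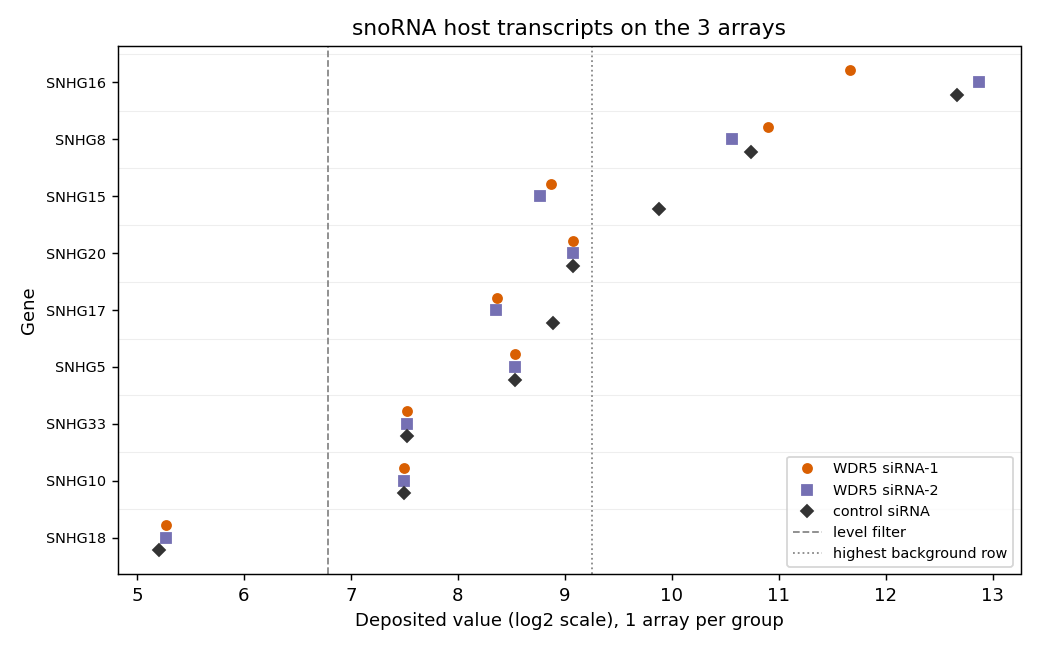
Deposited log2 values of the 9 SNHG genes (rows, in order of their mean) on the arrays of WDR5 siRNA-1, WDR5 siRNA-2 and the control siRNA, 1 point per array; the dashed line is the level filter (6.78) and the dotted line the highest background row (9.26). SNHG15 and SNHG17 have both WDR5 siRNA points left of control, SNHG16 only the siRNA-1 point, and probe sets differ in affinity, so rows are not compared with each other.

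As a group the 8 hosts that passed the filter had a median log2 ratio of 0.00 with each siRNA, the same as the 7442 genes, because 4 of them were tied. Under a stricter level filter at the 75th percentile, which left 5 hosts, the medians were -0.53 and -0.18. Each is the ratio of 1 gene, SNHG17 with siRNA-1 and SNHG8 with siRNA-2. SNHG17 (mean level 8.5372) only just passed that filter (8.5368), and the tied SNHG5 (8.5325) only just missed it. Among the 8 hosts, 3 were lower than control with siRNA-1, 1 was higher and 4 were equal. With siRNA-2 the counts were the same, and SNHG16 and SNHG8 changed places. Of the 7442 genes 38.2% were lower, 38.1% higher and 23.7% equal with siRNA-1, and 41.6%, 32.6% and 25.7% with siRNA-2. At least 1.5-fold lower with siRNA-1 were 2 of the 22 filtered members (SNHG15 and SNHG16), beside 4.60% of the 7442 genes, and 0 were higher, beside 2.24%. At least 1.5-fold lower with siRNA-2 were 2 (SNHG15 and SCARNA22), beside 4.00%, and 0 were higher, beside 2.19%. With so few members these counts differ from the background share by about 1 gene.

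Of the 23 scaRNAs, 14 passed the level filter, and their log2 ratios had a median of 0.09 for siRNA-1 and 0.00 for siRNA-2, beside 0.00 and 0.00 for the 7442 genes. Of these 14, 0 were 1.5-fold from control with both siRNAs, where the share of the 7442 genes given above would come to under 1 gene in either direction. Over all 23, 3 were lower and 4 higher with both siRNAs by any amount, 8 went opposite ways, 7 were tied on all arrays and SCARNA20 was tied with control on the siRNA-2 array only. Of all named genes 15.3% were lower with both, 13.0% higher with both and 15.7% opposite. These tallies are not stable: centring on the 75th percentile, which moves ties off 0, gave 3 lower, 14 higher and 6 opposite, and quantile normalization 3, 9 and 11.

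The box C/D scaRNAs and those with both box types differed little between arrays. They are SCARNA2, SCARNA7, SCARNA9, its near copy SCARNA9L and SCARNA17 (box C/D), and SCARNA5, SCARNA6, SCARNA10 and SCARNA12 (both types), and they are 266 to 421 nucleotides long in RefSeq. All 9 passed the level filter, and their log2 ratios ran from -0.12 to 0.16 with siRNA-1 and from -0.18 to 0.13 with siRNA-2. SCARNA17 (U91) had log2 values of 10.12 with WDR5 siRNA-1 and 10.15 with WDR5 siRNA-2, against 10.13 with the control siRNA. SCARNA12 (U89) had 10.17 and 10.00, against 10.06. These 2 stood above every background row on all arrays, and their arrays differed by at most 0.17.

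SCARNA9, a guide for the U2 small nuclear RNA, was the 1 gene of these 9 lower with both siRNAs, with log2 values of 8.89 and 8.83 on the WDR5 siRNA-1 and siRNA-2 arrays against 9.01 with the control siRNA. Its copy SCARNA9L had 8.88 and 8.61, against 8.75, so it did not share the direction with siRNA-1. Near-identical sequence makes the split between SCARNA9 and SCARNA9L uncertain. SCARNA2, which also guides U2, had 8.56 on each WDR5 siRNA array against 8.43, and SCARNA10 (U85), the first scaRNA described, had 8.49 on each against 8.43. SCARNA7 (U90) had 9.07 and 9.10, against 9.09. SCARNA6 (U88) had 7.86 and 7.63, against 7.70, and SCARNA5 (U87) was tied at 6.85, a value found in 33 to 41 rows.

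The remaining 14 scaRNAs, 13 box H/ACA guides and SCARNA27, are 125 to 187 nucleotides long, and 5 of them passed the level filter, against 9 of the 9 longer ones. Standard RNeasy columns, the kind named for the extraction, recover short RNAs poorly, and a probe set in an intronic guide can also read the unspliced host; neither was tested for these levels. The H/ACA guides spread further between arrays, from -0.04 to 0.29 with siRNA-1 and from -0.76 to 0.10 with siRNA-2. With siRNA-1, 6 of the 13 were above control and 2 below, and with siRNA-2, 2 were above and 5 below. These tallies depend on ties: 5 of the 13 were tied on all arrays, and SCARNA20 was tied with control on the siRNA-2 array. Centring on the 75th percentile put these ties above control, by 0.03 with siRNA-1 and 0.06 with siRNA-2. More guides were then above than below control with siRNA-2 as well. Of all named genes 27.1% were above and 29.4% below with siRNA-1, and 25.3% above and 27.8% below with siRNA-2. The 5 below control with siRNA-2 were SCARNA22, SCARNA15, SCARNA16, SCARNA8 and SCARNA18. Recurring values limit these too: SCARNA8 held values found in 31 to 54 rows and SCARNA16 in 2 to 4 rows of each array. The siRNA-1 and control values of SCARNA22 were held by 5 and 4 rows, and the siRNA-1 values of SCARNA15 and SCARNA18 by 3 and 41 rows.

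SCARNA22 (ACA11), a guide within NSD2 that is known from myeloma with a rearranged NSD2 locus, had the lowest ratio. It had log2 values of 8.25 with WDR5 siRNA-1 and 7.53 with WDR5 siRNA-2, against 8.29 with the control siRNA. It was 1.69-fold lower with siRNA-2 (59.0% of control) and 1.03-fold lower with siRNA-1. The siRNA-2 array stood alone, and all 3 values lay within the range of the background rows.

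SCARNA16 (ACA47) had log2 values of 9.52 with WDR5 siRNA-1 and 8.81 with WDR5 siRNA-2, against 9.25 with the control siRNA, so control lay between the WDR5 siRNA arrays (log2 ratios of 0.27 and -0.44). The siRNA-2 and control values of SCARNA16 were below the highest background row (9.26). SCARNA15 (ACA45), a guide RNA that can also be processed into a small RNA by Dicer, had 4.59 and 3.92, against 4.53, and did not pass the level filter. Its ratio with siRNA-2, -0.61, is past 1.5-fold but lies near the median background row (4.61). SCARNA8 (U92) had 6.58 and 6.26, against 6.61, and SCARNA18 (U109) had 6.05 and 5.67, against 5.80; both were under the filter.

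SCARNA4 (ACA26) and SCARNA21 (ACA68) were the H/ACA guides higher with both siRNAs. SCARNA4 had log2 values of 7.82 and 7.63 on the WDR5 siRNA-1 and siRNA-2 arrays, against 7.53 with the control siRNA. SCARNA21 had 7.08 and 7.01, against 6.91. Both differences were under 1.5-fold, and the siRNA-2 value of SCARNA4 was shared by 15 rows, a background row and SCARNA6 among them. The control value of SCARNA4, on which both of its ratios rest, was held by 8 rows, SNHG33 among them. SCARNA20 (ACA66) had 6.62 with siRNA-1 and 6.36 with both siRNA-2 and control. SCARNA1, SCARNA3, SCARNA11, SCARNA14, SCARNA23 and SCARNA27 were tied on all arrays, from 4.49 (SCARNA23) to 7.05 (SCARNA27), each at a value shared by at least 12 rows.

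**Figure D2:**
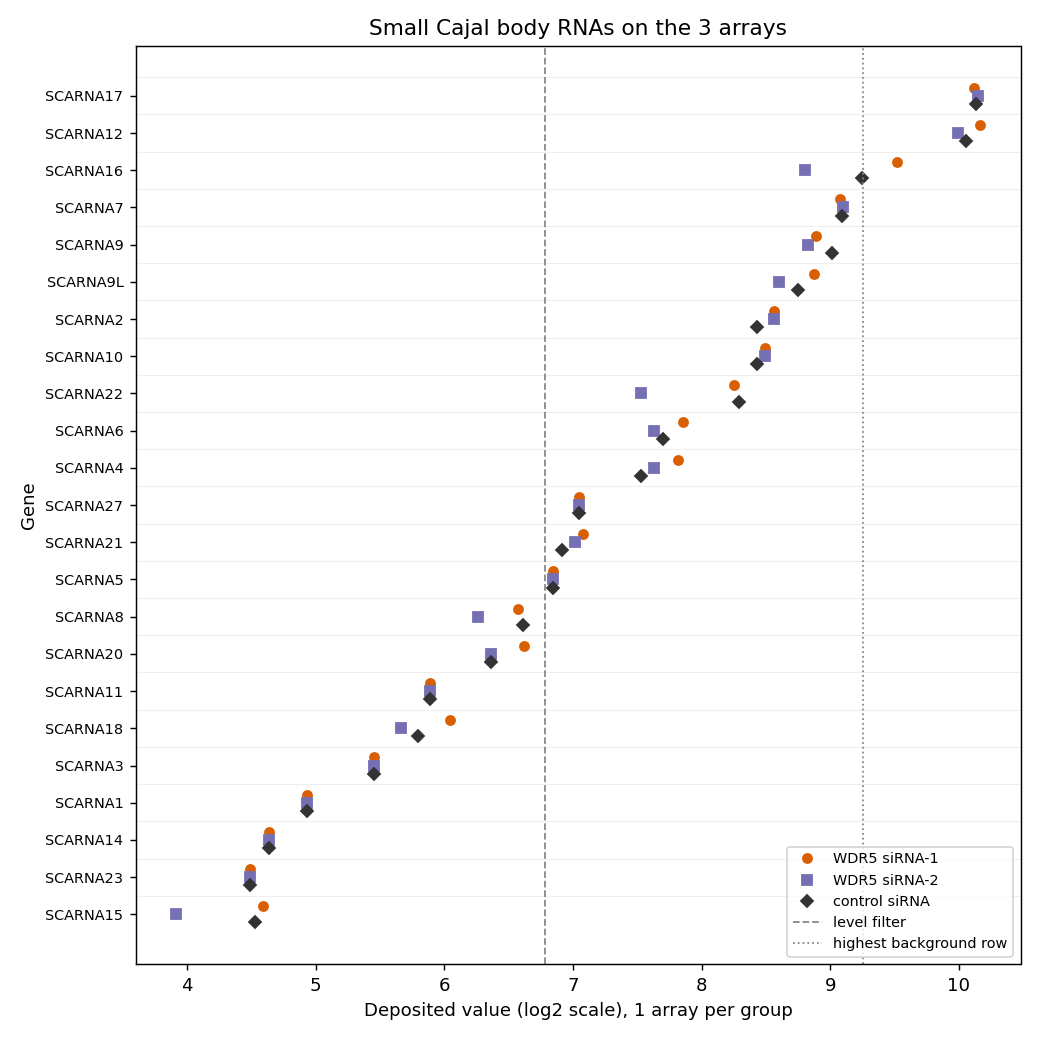
Deposited log2 values of the 23 scaRNAs (rows, in order of their mean) on the arrays of WDR5 siRNA-1, WDR5 siRNA-2 and the control siRNA, 1 point per array, with the level filter (6.78, dashed) and the highest background row (9.26, dotted). The siRNA-2 points of SCARNA22, SCARNA16 and SCARNA15 lie left of the other points of their rows, and SCARNA17 and SCARNA12 alone have all points right of the dotted line.

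The WDR5 siRNA arrays were then set against each other. SNHG16 was 2.31-fold lower on the siRNA-1 than on the siRNA-2 array, the 1 filtered member at least 1.5-fold lower, beside 4.65% of the 7442 genes. SCARNA22 and SCARNA16 were at least 1.5-fold higher on the siRNA-1 than on the siRNA-2 array (1.65-fold and 1.64-fold), 2 of 22 beside 4.21%. Of the 14 filtered scaRNAs, 8 were higher on the siRNA-1 array, 2 lower and 4 equal, with a median log2 difference of 0.07; of the 7442 genes 43.1% were higher and 35.5% lower, with a median of 0.00. The spiked bacterial control rows moved the same way: all 9 were higher on the siRNA-1 array than on the control array, by a median log2 difference of 0.16 (0.08 to 0.30), and 2 of 9 on the siRNA-2 array (median -0.02). Their part in the difference between the siRNA arrays was not tested.

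**Figure D3:**
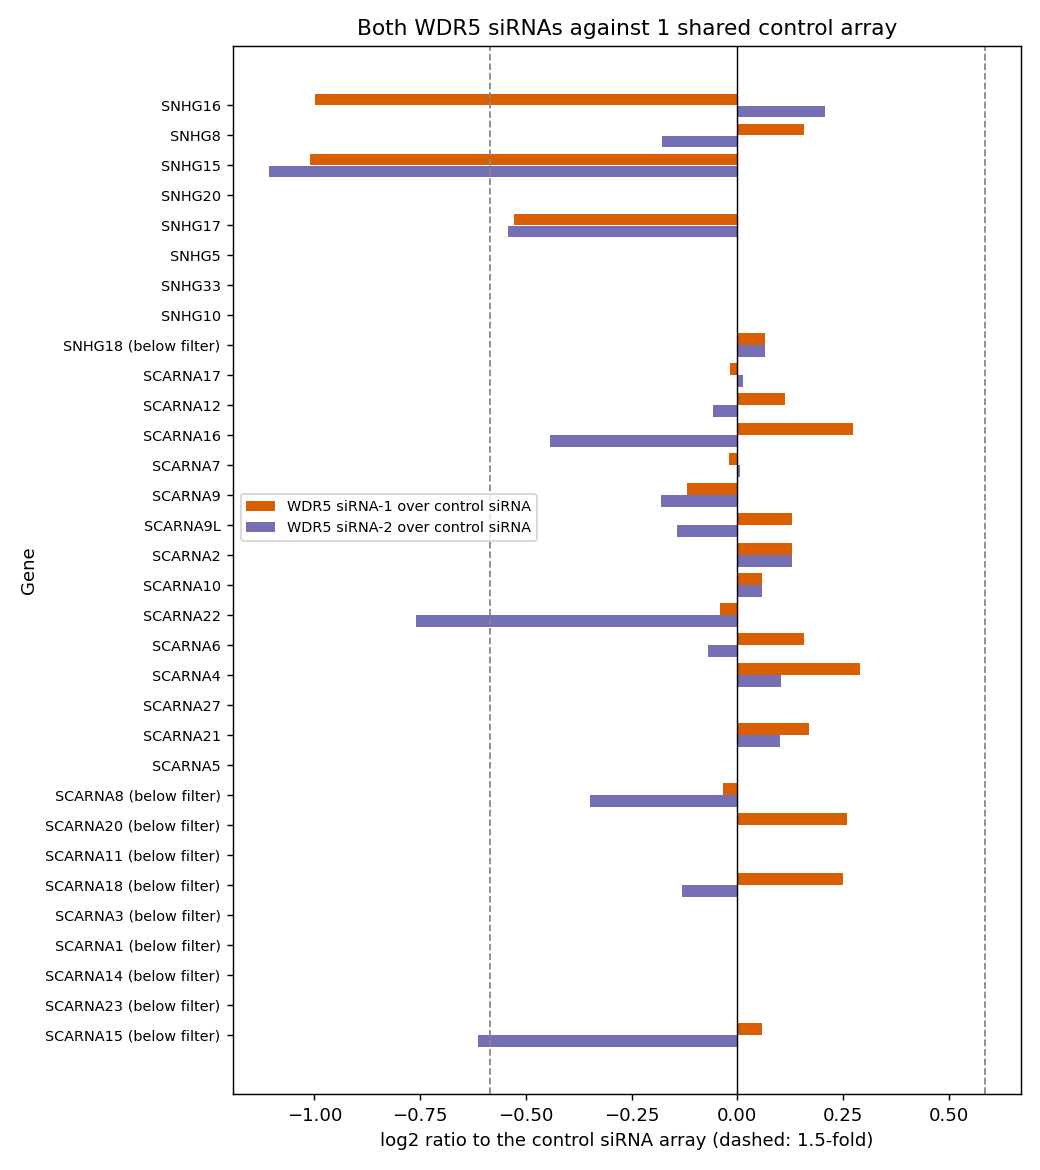
log2 ratio of WDR5 siRNA-1 and of WDR5 siRNA-2 to the control siRNA array for all 32 members (bars from 0, 1 array per group, no error); dashed lines mark 1.5-fold. SNHG15 alone is past the left line with both siRNAs, SNHG16 with siRNA-1 only, SCARNA22 and SCARNA15 with siRNA-2 only, and genes without a bar were tied with control.

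Since most guides are made from introns, the scaRNAs were set beside the genes that contain them in RefSeq. Of the 23 scaRNAs, 22 lie within another gene and SCARNA2, which has its own promoter, does not. A containing gene was measured for 13 scaRNAs. The table used gives no strand for the scaRNAs, so an antisense gene could be among the containing genes; FSD2, which contains SCARNA15 together with the unmeasured SNHG21, is on the opposite strand from SNHG21.

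Some guides had other values than the gene that contains them. SCARNA22 was lower with siRNA-2 (log2 ratio of -0.76), whereas NSD2, a histone methyltransferase gene, had log2 values of 9.13 with each WDR5 siRNA against 9.19 with the control siRNA. SCARNA22 and NSD2 thus differed in size with siRNA-2 but not in sign, and with siRNA-1 their ratios were -0.04 and -0.06. The WDR5 siRNA values of NSD2 were an exact tie, and all of its values were below the highest background row (9.26), so its ratios are uncertain. SCARNA16 had ratios of 0.27 and -0.44, and its host SNHG20 was tied on all arrays, so that pair cannot be compared. ATG16L1, an autophagy gene, had 8.12 with WDR5 siRNA-1 and 8.68 with WDR5 siRNA-2, against 8.68 with the control siRNA, beside ratios of 0.16 and -0.07 for SCARNA6 within it. The siRNA-2 and control values of ATG16L1 were an exact tie, and all of its values were below the highest background row as well. SCARNA5, also within ATG16L1, was tied on all arrays at a recurring value and cannot be compared. KPNA4, an importin alpha gene, had ratios of 0.30 and -0.41, and SCARNA7 within it of -0.02 and 0.01.

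CHD3 and CEP295, like NSD2 above, had the same sign as their guides with both siRNAs. CHD3, a chromatin remodeller gene, had log2 values of 10.04 with WDR5 siRNA-1 and 10.12 with WDR5 siRNA-2, against 9.73 with the control siRNA, and SCARNA21 within it was also higher with both. CEP295, a centriole gene, had ratios of -0.07 and -0.13, beside -0.12 and -0.18 for SCARNA9. KHDC4 had ratios of 0.19 and -0.01, beside 0.29 and 0.10 for SCARNA4. CHD4 (-0.11 and -0.21) and TIPIN (0.00 and -0.31) contain the tied guides SCARNA11 and SCARNA14. PHB2 had 0.00 and -0.06 beside 0.11 and -0.06 for SCARNA12, and TMEM167A -0.11 and -0.03 beside 0.25 and -0.13 for SCARNA18.

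**Figure D4:**
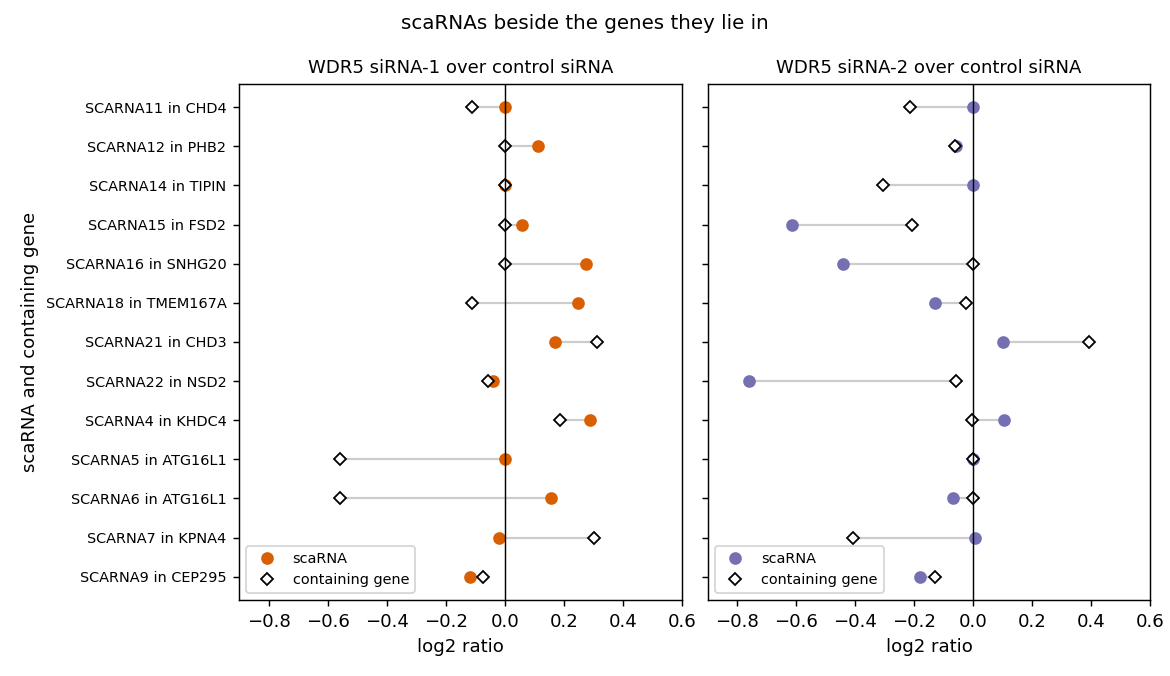
log2 ratio to the control siRNA array of 13 scaRNAs (filled circles) and of the measured gene that contains each (open diamonds), with WDR5 siRNA-1 in the left panel and WDR5 siRNA-2 in the right, 1 array per group. Long grey links, as for SCARNA22 in NSD2 with siRNA-2 (-0.76 beside -0.06) and SCARNA6 in ATG16L1 with siRNA-1 (0.16 beside -0.56), mark pairs that differed. All values of these named genes lay below the highest background row (9.26).

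Hosts outside the SNHG names gave a similar mixture. Of 26 listed, 9 were measured and passed the filter, with median ratios of 0.00 for siRNA-1 and -0.18 for siRNA-2. With both siRNAs 0 of these 9 were 1.5-fold from control, beside 0.847% lower and 0.618% higher among the 7442 genes. EEF2, the elongation factor gene that hosts SNORD37, had log2 values of 12.85 with WDR5 siRNA-1 and 12.23 with WDR5 siRNA-2, against 13.23 with the control siRNA, and so was 2.00-fold lower with siRNA-2 and 1.30-fold lower with siRNA-1. PRRC2A was 1.25-fold lower with each, NAP1L4 had ratios of -0.24 and -0.16, and TNPO2 of 0.48 and 0.16. GAS5 and ZFAS1, terminal oligopyrimidine hosts like several SNHG genes and named after their values were seen, had ratios of 0.05 and -0.27 and of 0.03 and -0.18.

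The protein partners of the guides were examined next. Of the box C/D and H/ACA core genes, 6 of 8 were measured. FBL (fibrillarin, the ribose methyltransferase) had log2 values of 12.30 with WDR5 siRNA-1 and 12.04 with WDR5 siRNA-2, against 12.18 with the control siRNA. NOP58 had 11.76 and 11.73, against 11.77, SNU13 8.53 and 8.58, against 8.51, and GAR1 7.98 and 7.88, against 7.85. NHP2 was tied, and NOP10 had ratios of 0.01 and -0.04. Of 13 assembly, transport and modification factors, 10 were measured and 0 were 1.5-fold from control with either siRNA, beside the shares of 4.60% lower and 2.24% higher (siRNA-1) and 4.00% and 2.19% (siRNA-2) among the 7442 genes, each of which would come to under 1 of these 10 genes. TGS1, the cap hypermethylase, had ratios of -0.10 and -0.19, RUVBL2 of 0.09 and 0.06, PHAX of 0.31 and 0.05, and SHQ1 of 0.03 and 0.03.

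Among the Cajal body proteins, 6 of 10 were measured, 5 passed the filter and 0 of these were 1.5-fold from control with either siRNA. The shares of the 7442 genes were 4.60% lower and 2.24% higher with siRNA-1, and 4.00% and 2.19% with siRNA-2, so 0 of 5 shows little. GEMIN5 was slightly higher with both (0.19 and 0.28), SART3 had -0.05 with each, and COIL, the scaffold coilin, named after its values were seen, had 0.37 and -0.09. GEMIN2 (-0.19 and -0.38) was under the filter. All 7 debranching and trimming factors were measured. PARN, which trims the ends of H/ACA guides, had log2 values of 9.93 with WDR5 siRNA-1 and 9.38 with WDR5 siRNA-2, against 10.15 with the control siRNA, and was 1.71-fold lower with siRNA-2. XRN1 had 0.27 with each and DBR1, the lariat debranching enzyme, -0.12 with each. Of the nonsense-mediated decay factors, which degrade many spliced SNHG transcripts, 2 of 10 were measured: UPF1 had ratios of 0.00 and 0.00 and UPF2 of -0.01 and -0.16.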

How the data were processed

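The authors' deposited table holds 53617 probe sets in 3 columns, 1 for each array. Their range, from 1.34 to 14.9, was taken to mean that the deposited values are log2; no scale is stated in the file, and all folds depend on this. The submitters' processing notes name MAS5 without its role; background correction, normalization, summarisation and genome build are not given in the sources used here. RNA was extracted with an RNeasy kit, per the labels' protocols. The number of arrays limits the precision.

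Names came from the platform annotation, which gave a single gene symbol for 16098 probe sets and none here for 37519 (none had several). All 16098 Entrez identifiers were found in the RefSeq table of GRCh38.p14, used for current names, lengths and neighbours. The probe set with the highest mean represented a gene (779 genes had several), and genes with a mean of at least 6.78 were kept. A gene was counted at 1.5-fold. The planned same-strand rule for hosts could not be applied, since the table gives no strand, so any containing gene was listed. Named genes were WDR5, every SNHG gene, scaRNAs at 1.5-fold, the leading scaRNAs by shared ratio, level and difference between siRNAs, their containing genes, and up to 4 genes per list by shared ratio; the other scaRNAs, and genes identified as such, were named after their values were seen. Guide types were assigned from general knowledge. Members and lists were chosen with earlier results of these data known. Counting was checked on simulated data. Python 3.11.15, pandas 2.3.3, numpy 2.4.6 and matplotlib 3.10.9 were used.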

Additional observations from a re-analysis of the deposited data

Results flagged for a closer look

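The following 3 genes lay on opposite sides of control with the WDR5 siRNAs and differed by at least 1.5-fold between the siRNA arrays; with 1 array each, the difference was not tested. The log2 ratio of WDR5 siRNA-1 over WDR5 siRNA-2 was -1.208 for SNHG16, whose values of 11.67 and 12.88, against 12.67 with the control siRNA, were all above the background rows. It was 0.7165 for SCARNA16 (9.52 and 8.81, against 9.25), whose siRNA-2 and control values were below the highest background row. It was 0.6712 for SCARNA15 (4.59 and 3.92, against 4.53), which lay near the median background row of 4.61.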

How the results depend on the processing

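No ratio past 1.5-fold changed sign, but these runs could not have made one do so. Quantile normalization and centring moved ratios by at most 0.09, and raising values to the background row can only shrink a ratio. Among smaller ratios, SCARNA17 (0.0097) and SCARNA7 (0.0071) with siRNA-1 changed sign with centring on the 75th percentile. SCARNA6 with siRNA-2 (0.0063) did so with quantile normalization. Quantile normalization and centring on the 75th percentile moved no count of members by over 1.5 times and no class median by over 0.1 (log2). For single genes the largest shift was 0.09. The mean of probe sets could not change the values of a member, since each had 1 probe set, so that run says nothing about stability. With values raised to the median background row, the siRNA-2 ratio of SCARNA15 became 0. With a 2-fold limit, 1 member was lower with siRNA-1 and 1 with siRNA-2 (SNHG15 in both), and 0 were higher on the siRNA-1 than on the siRNA-2 array; SNHG16 just missed 2-fold with siRNA-1 (log2 ratio -0.99994). With the level filter at the 75th percentile, 11 members were left. Then 1 was 1.5-fold lower with siRNA-2 and 1 higher on the siRNA-1 than on the siRNA-2 array. The SNHG medians (5 genes, fewer of them tied) were -0.53 with siRNA-1 (the ratio of SNHG17) and -0.18 with siRNA-2 (that of SNHG8). The scaRNA median (6 genes) was -0.10 with siRNA-2. With no level filter 3 members were lower with siRNA-2, SCARNA15 being added (3 of 32, beside 2.37% of the 14884 genes), and no class median moved by over 0.1. SNHG15 was 1.5-fold lower with both siRNAs under every alternative run, though only quantile normalization and centring changed its values. Leaving out the imprinted SNORD clusters was not run, as no SNORD gene is named in the annotation used here. No paired analysis was possible because each group has 1 array. Signal over background limits most members, as it does most named genes. Above every background row on all arrays stood 4 of 32 members, beside 2212 of the 14884 named genes.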
